A study of Mus musculus with 92 samples.

Results

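The gelsolin family proteins remodel actin, the filament protein that gives cells their shape and lets them move. Gelsolin (Gsn) severs actin filaments and caps their fast-growing ends when calcium rises, scinderin (Scin, also called adseverin) severs filaments in secretory cells, and Capg caps filament ends without severing them and is abundant in macrophages. Flightless I (Flii) joins gelsolin-like repeats to a leucine-rich repeat and also acts as a coactivator of nuclear receptors, and supervillin (Svil) ties actin and myosin to membranes and has a long form in striated muscle. These 5 genes, of 15967 with a named probe on the array, were taken by symbol, with 10 of 24613 probes. The set was chosen by the lower signal of Flii in G93A-SOD1 blood, so the blood genotype values below are a description without a test.

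Transcripts were measured on 92 Illumina bead arrays from mice of the B6.Cg-Tg(G93A-SOD1)1Gur/J strain, in which a mutant human superoxide dismutase 1 transgene leads to loss of motor neurons, a model of amyotrophic lateral sclerosis. G93A-SOD1 mice and their wild type littermates, which carry no transgene, were sampled at 70 and at 100 days of age. Whole blood, from which globin RNA had been depleted, lumbar spinal cord and left tibialis anterior (a fast leg muscle) were taken. Each group held 8 arrays, except that G93A-SOD1 muscle at 100 days held 7 and wild type at 100 days held 7 in every tissue. The transgene is under the human SOD1 promoter and is active in many tissues. The labels do not state that replicates came from separate mice, so p-values measure the spread between these arrays.

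An array detected between 5212 and 13428 probes in spinal cord, between 8512 and 11577 in muscle and between 6809 and 9691 in blood. Detection means a detection p-value under 0.05, and precision is limited by how many arrays a group holds. Of the defining markers on the array, spinal cord detected 6 of 6 for oligodendrocytes and 4 of 4 for astrocytes on at least 7 arrays, muscle 6 of 6 for fast fibres, and blood 5 of 5 for T cells and 5 of 5 for B cells. Neuron markers were weaker in spinal cord, where 3 of 5 reached 7 arrays. The arrays of G93A-SOD1 replicate 1 at 70 days and wild type replicate 5 at 100 days were dim in spinal cord. The spinal cord arrays of G93A-SOD1 replicate 8 at 100 days and wild type replicates 3 and 5 at 70 days held muscle transcripts, with mean fast fibre log2 levels of 10.86, 13.18 and 12.94, against at most 8.36 on the others. Wild type blood replicate 6 at 70 days had a raised background. Sod1, whose probe is named for the mouse gene, was 0.33 log2 units higher in G93A-SOD1 muscle at 100 days (adjusted p = 0.0358, limma) and 0.65 higher in G93A-SOD1 blood at 70 days (adjusted p = 0.0218). It did not pass in muscle at 70 days (0.16, adjusted p = 0.447), in blood at 100 days (0.44, adjusted p = 0.828) or in spinal cord (-0.01 at 70 and 0.11 at 100 days). No source used here says if the probe also reads the human transgene.

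Flii lies on the minus strand of chromosome 11 (60714143 to 60727263, RefSeq annotation of GRCm38.p6), Gsn on chromosome 2 (35256359 to 35307902), Capg on chromosome 6 (72538282 to 72562983) and Scin on chromosome 12 (40059769 to 40134228). No source used here gives the build behind the array design. The promoters of Flii, which was detected in all 3 tissues, and of Scin, which was detected in muscle alone, are shown to set the sequence beside that contrast. Each runs from 250 bases before the annotated start through the first 50 bases of the gene, 5′ to 3′ on the gene's strand, from RefSeq, at chr11:60727214-60727513 for Flii and chr12:40134179-40134478 for Scin. Capitals mark the GC box GGGCGG or its reverse complement CCGCCC.
Flii: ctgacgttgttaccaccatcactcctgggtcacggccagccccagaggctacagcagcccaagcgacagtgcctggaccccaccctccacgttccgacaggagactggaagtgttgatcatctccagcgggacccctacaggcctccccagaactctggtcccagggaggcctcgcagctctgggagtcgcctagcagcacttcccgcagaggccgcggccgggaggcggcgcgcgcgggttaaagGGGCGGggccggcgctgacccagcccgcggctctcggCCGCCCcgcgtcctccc
Scin: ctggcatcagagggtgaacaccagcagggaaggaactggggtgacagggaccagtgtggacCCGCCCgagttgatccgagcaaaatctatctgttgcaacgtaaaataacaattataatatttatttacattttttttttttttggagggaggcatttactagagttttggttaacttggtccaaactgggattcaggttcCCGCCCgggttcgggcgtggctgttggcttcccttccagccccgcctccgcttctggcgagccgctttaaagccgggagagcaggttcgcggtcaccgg
The Flii window held 1 GC box on the gene's strand and 1 on the other, with a GC content of 70% and 26 CpG dinucleotides. The Scin window held 2 on the other strand, with a GC content of 52% and 16 CpG dinucleotides. A GC box on either strand was present in 35.7% of all 32851 promoter windows. Neither window held CCAAT (37.4% of windows) or TATAAA (13.6%) on either strand, searched with their reverse complements, and none of the 3 motifs overlapped another here. A match is a description of the letters in this window.

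Which member is measured in which tissue was settled first. Flii was detected on 30 of 31 spinal cord arrays, 30 of 30 muscle arrays and 31 of 31 blood arrays. Gsn was detected on 31 of 31 spinal cord and 30 of 30 muscle arrays and on 0 of 31 blood arrays. Capg was detected on 29 spinal cord, 30 muscle and 31 blood arrays, and Scin on 25 of 30 muscle arrays and on 0 in spinal cord and in blood. Of the 6 Svil probes, ILMN_2776524 was detected on 30, 30 and 31 arrays of spinal cord, muscle and blood, and ILMN_1224247 on 7, 30 and 8. In muscle ILMN_1240861 was detected on 9 arrays, ILMN_2675800 on 11 and ILMN_1243373 on 4, all at 0 elsewhere, and ILMN_2659523 was not detected. A probe detected on at least 7 arrays of a tissue entered its tests, which left 5 probes of 4 genes in spinal cord, 8 probes of 5 genes in muscle and 4 probes of 3 genes in blood.

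Wild type tissues were compared after all arrays were normalized together, over 15 arrays a tissue with both ages. Most probes differ between tissues: 72.9% of 15119 probes were called between muscle and spinal cord, 81.1% between blood and spinal cord and 72.3% between muscle and blood at an adjusted p under 0.05 (limma with Benjamini-Hochberg adjustment). Of the 8 member probes, 7, 5 and 7 were called in these comparisons, and so few probes give only a rough share. Scin, Svil ILMN_1240861 and Svil ILMN_2675800 were not called between blood and spinal cord. They were detected on 0 wild type arrays of either tissue. Fewer cells of a type and less RNA per cell cannot be told apart in such bulk samples.

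The transcripts of the severing and capping proteins differed between tissues. Scin averaged 6.25 ± 0.61 log2 units in muscle (SD, n = 15) and was not detected in spinal cord or blood, which made it at least 2.32-fold higher in muscle than in spinal cord and at least 1.27-fold higher in muscle than in blood. Such bounds set the mean of the brighter tissue against the dimmest signal that could be detected in the other. They were computed for this normalization alone. Over 4 alternative settings the log2 difference of Scin ran from 0.50 to 1.76 for muscle minus spinal cord. It ran from 0.40 to 1.72 for muscle minus blood, and both were called in each setting. Gsn averaged 7.60 ± 0.97 in muscle and 7.44 ± 0.50 in spinal cord (SD, n = 15 each) and was at least 3.23-fold higher in muscle than in blood and at least 2.91-fold higher in spinal cord than in blood. Over the same settings Gsn ran from 0.81 to 2.74 for muscle minus blood and from -2.92 to -0.65 for blood minus spinal cord. Both were called in each setting. The Gsn difference of muscle minus spinal cord was 0.21 (SE 0.22, adjusted p = 0.412, limma) and turned to -0.56 with median centring (adjusted p = 0.0525).

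Capg ran the other way, with 9.69 ± 0.64 in blood, 6.96 ± 0.29 in muscle and 6.09 ± 0.59 in spinal cord (SD, n = 15 each). Blood minus spinal cord was 3.59 (SE 0.18, adjusted p = 3.32e-33, limma). Muscle minus spinal cord was 0.85 (SE 0.18, adjusted p = 1.65e-05), and with median centring it was 0.03 and not called (adjusted p = 0.911). The membrane linker Svil was highest in muscle by its brightest probe, ILMN_2776524, with 11.03 ± 0.24 in muscle, 8.71 ± 0.32 in blood and 6.95 ± 0.53 in spinal cord (SD, n = 15 each). Muscle minus spinal cord was 4.09 (SE 0.14, adjusted p = 1.95e-45, limma), a 17.0-fold difference, and muscle minus blood was 2.33 (SE 0.14, adjusted p = 2.51e-28). Blood minus spinal cord was 1.76 (SE 0.14, adjusted p = 4.87e-21) and fell out of the calls with median centring, at 0.39 (adjusted p = 0.0817).

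Flii, detected in every tissue, had 8.74 ± 0.37 in blood, 8.51 ± 0.17 in muscle and 7.54 ± 0.20 in spinal cord (SD, n = 15 each). Blood minus spinal cord was 1.19 (SE 0.14, adjusted p = 6.14e-13, limma), and with median centring it turned to -0.17 (adjusted p = 0.466). Muscle minus spinal cord was 0.97 (SE 0.14, adjusted p = 1.07e-09), against 0.28 with median centring (adjusted p = 0.234). Muscle minus blood was -0.22 (SE 0.14, adjusted p = 0.145), so these neighbours in the order were not told apart. Median centring moved the median of all probes by a smaller amount, to -0.54 for blood minus spinal cord and to -0.18 for muscle minus spinal cord, against -0.03 and 0.09 with quantile normalization.

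**Figure D1:**
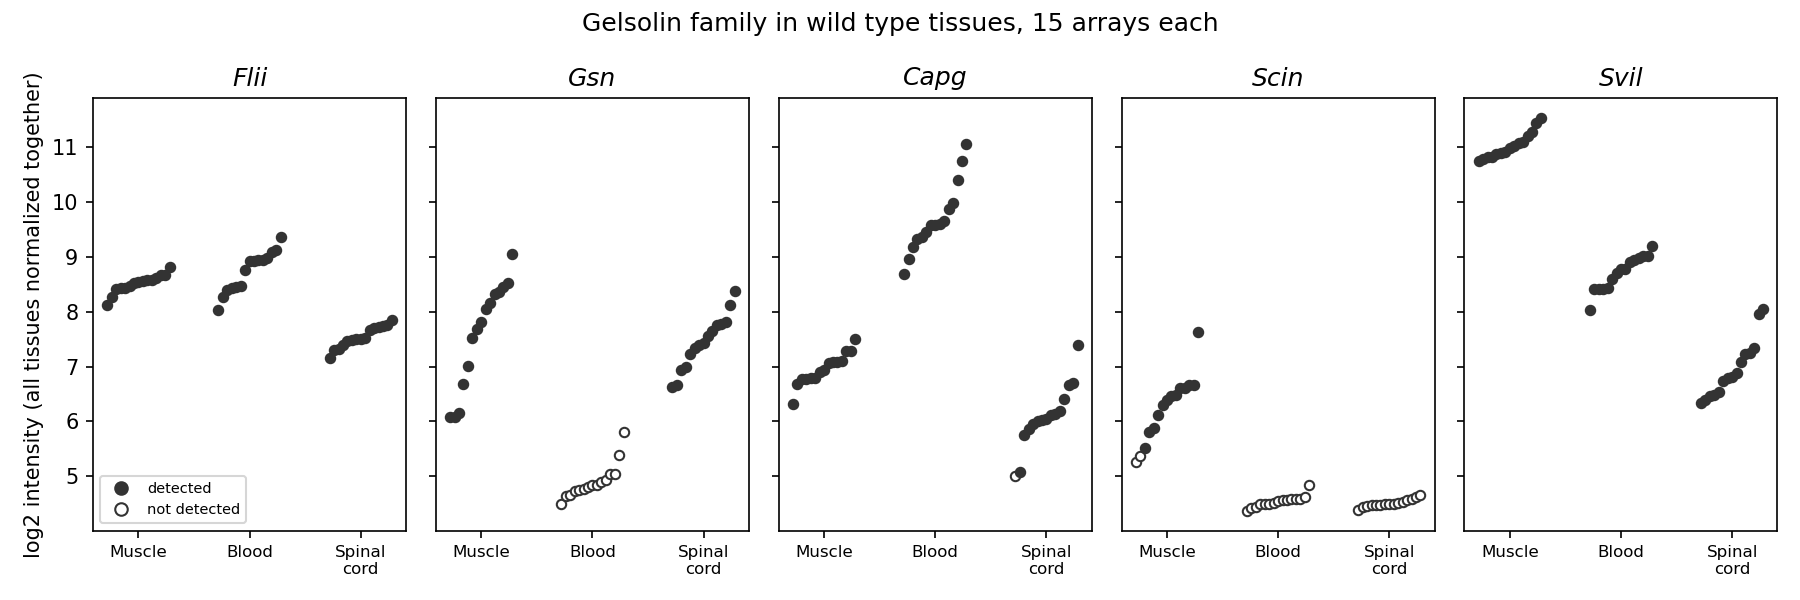
Log2 intensity of each member on the wild type arrays of muscle, blood and spinal cord (15 each, all tissues normalized together); each point is an array, filled where the probe was detected, and Svil is probe ILMN_2776524. Scin is detected in muscle alone, Gsn is not detected in blood, Capg is highest in blood and Svil in muscle.

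In blood, the tissue that chose it, Flii was lower in G93A-SOD1 mice at both ages. At 70 days its log2 level ran from 6.27 to 7.53 (median 6.95) in G93A-SOD1 blood, against 7.54 to 8.52 (median 8.05) in wild type blood. The 8 G93A-SOD1 arrays all lay below the 8 wild type arrays, by a narrow margin at the edge, as did 0.0518% of 9646 probes in this direction. The difference was -1.03 (SE 0.19), or 2.04-fold, and 36 probes had a lower one. At 100 days Flii ran from 6.01 to 7.34 (median 6.85) in G93A-SOD1 blood, against 7.15 to 8.22 (median 7.57) in wild type blood. Here the groups overlapped, the difference was -0.93 (SE 0.20), or 1.90-fold, and 4 probes had a lower one. Groups without overlap in this direction were 0.0311% of probes at 100 days. Since Flii was chosen for its lower blood signal, its place among the probes follows from that choice and is no support for it.

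Without the wild type blood array of raised background, the differences were -1.02 at 70 days and -0.93 at 100 days. In the authors' series matrix values, whose normalization is not stated, they were -0.59 and -0.49. The 8 marker lists of blood cell types and macrophages, with 38 measured genes, held 0 called in either genotype comparison (limma), where 0.0726% and 0.0518% of all probes were called at 70 and 100 days. At an unadjusted p under 0.05 there were 7 and 2 of these 38 genes, against 5.85% and 2.16% of all probes. At 70 days 3 of the 7 were among the 6 measured macrophage markers, whose differences ran from -2.17 to 0.09. The median differences of the 8 lists lay between -0.76 for macrophage markers and 0.38 for B cell markers at 70 days. At 100 days these medians lay between -0.24 for macrophage markers and 0.45 for neutrophil markers. The summed macrophage marker level at 70 days ran from 11.23 to 13.46 (median 12.61) in G93A-SOD1 blood and from 11.60 to 14.83 (median 13.34) in wild type blood, on a log2 scale, over 9 markers on the array, of which Itgam, P2ry12 and Tmem119 were never detected. The part of blood cell composition in the Flii values was not tested.

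The stated rule chose Flii by its blood values and not by spinal cord, though earlier results of these data were known. At 70 days the log2 level of Flii ran from 4.68 to 8.01 (median 7.46) in G93A-SOD1 spinal cord, against 8.03 to 8.42 (median 8.21) in wild type spinal cord. All 8 G93A-SOD1 arrays lay below all 8 wild type arrays, which 0.0232% of 12941 probes did (3 probes), and the lowest value came from the dim array, on which Flii was not detected. The difference was -1.11 (SE 0.28), or 2.16-fold, but did not pass the threshold (adjusted p = 0.746, limma), where its p-value ranked 5 among all probes and 3 probes were called (0.0232%). Without the 2 dim arrays the difference was -0.76 (SE 0.15, adjusted p = 0.0591), leaving out the 3 that held muscle transcripts gave -1.10 (adjusted p = 0.906), and leaving out all 5 gave -0.76 (adjusted p = 0.160). With arrays weighted by quality it was -0.80 (SE 0.14) and passed, with an adjusted p = 0.00960 (limma). Over 13 alternative settings the difference stayed between -1.16 and -0.49 and the adjusted p between 0.00960 and 0.906.

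At 100 days Flii ran from 6.93 to 8.26 (median 7.82) in G93A-SOD1 spinal cord, against 7.87 to 8.53 (median 8.21) in wild type spinal cord, and the groups overlapped. The difference was -0.47 (SE 0.29, adjusted p = 1.0, limma), and between -0.61 and -0.11 over 13 alternative settings. The change of the genotype difference between the ages was 0.64 (SE 0.40, adjusted p = 0.801) and 0.15 without the 5 arrays that stood apart (adjusted p = 1.0), so the ages were not told apart. In wild type spinal cord, 100 against 70 days gave -0.01 (SE 0.29, adjusted p = 0.999), and in G93A-SOD1 spinal cord 0.62 (SE 0.28, adjusted p = 0.677), or 0.20 without these 5 arrays.

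In muscle no Flii difference between genotypes passed the test. At 70 days it ran from 8.02 to 8.76 (median 8.21) in G93A-SOD1 muscle, against 8.24 to 8.65 (median 8.38) in wild type muscle, a difference of -0.12 (95% interval -0.33 to 0.10, adjusted p = 0.653, limma). At 100 days it ran from 8.11 to 8.55 (median 8.27) in G93A-SOD1 muscle, against 7.92 to 8.49 (median 8.34) in wild type muscle, a difference of 0.05 (95% interval -0.18 to 0.28, adjusted p = 0.827). Whether the spinal cord and muscle differences of Flii differ from each other was not tested. With age Flii gave -0.33 in wild type blood (SE 0.20, adjusted p = 0.585) and -0.24 in G93A-SOD1 blood (SE 0.19, adjusted p = 0.953), 100 minus 70 days.

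**Figure D2:**
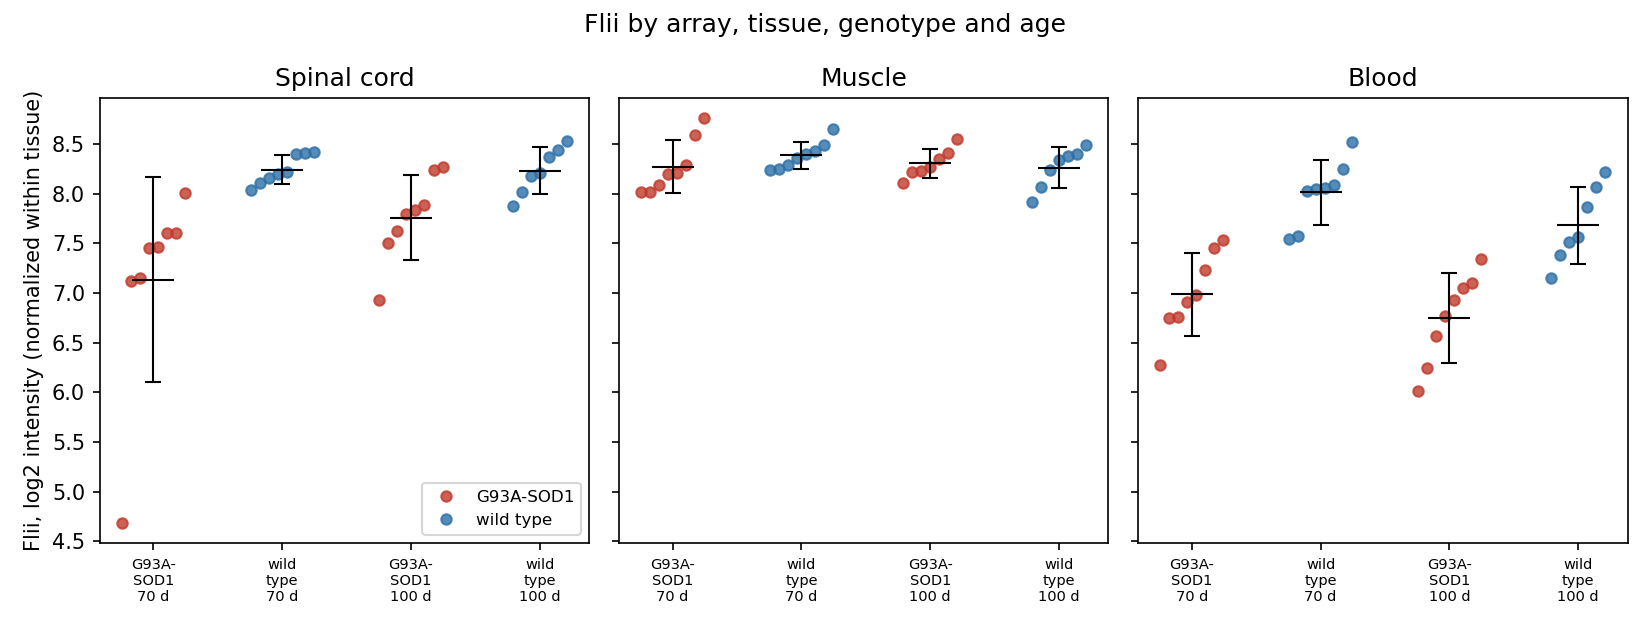
Log2 intensity of Flii on each array (points) by tissue, age and genotype, normalized within each tissue; horizontal marks and bars are the mean and SD. All G93A-SOD1 arrays sit below all wild type arrays at 70 days in blood and in spinal cord, where 1 dim array reads 4.68, and the genotypes overlap at 100 days in both tissues and at both ages in muscle.

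The neighbours of Flii on chromosome 11 were examined because a probe can read an adjoining gene. Llgl1, a cell polarity gene (60699672 to 60714186), shares 44 bases with the 3′ end of Flii. Its probe gave G93A-SOD1 minus wild type differences between 0.01 and 0.19 over the 3 tissues and both ages, and none was called (adjusted p at least 0.822, limma). Of the 10 nearest annotated genes 3 have a probe. Smcr8, which works with the protein of the C9orf72 orthologue, gave 0.52 (adjusted p = 0.746) and -0.28 (adjusted p = 1.0) in spinal cord, and Top3a, a topoisomerase, was too weakly detected to enter.

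In the main fit no member, Flii included, showed a called genotype difference outside blood. In spinal cord 0 of 5 member probes passed at 70 days, where 0.0232% of all probes did. At 100 days 0 of 5 passed, where 0.0155% did. At an unadjusted p under 0.05 there were 2 (Flii and Svil ILMN_2776524) and 0 of these 5, against 4.98% and 3.06% of all probes (limma). In muscle 0 of 8 passed at 70 days against 0.00938% of all 10658 probes, and 0 of 8 at 100 days against 10.0% of them. Those at an unadjusted p under 0.05 were 0 and 2 of the 8, against 14.7% and 27.1% of all probes. The same fit called 0 members for a change of the genotype difference with age and 0 for age in either genotype, where no probe of the array was called. At an unadjusted p under 0.05, age in G93A-SOD1 spinal cord held 2 of 5 member probes, against 7.13% of all probes. Age in wild type muscle held 2 of 8, against 12.8%, and the change in muscle 1 of 8, against 2.72%. The other comparisons held 0, where between 1.38% and 9.4% of all probes did.

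Among the severing proteins, Gsn in muscle ran over a wide range, from 5.32 to 8.73 (median 7.33) in G93A-SOD1 muscle and from 5.74 to 8.33 (median 6.53) in wild type muscle at 70 days. At 100 days it ran from 6.05 to 8.94 (median 8.26) in G93A-SOD1 muscle and from 7.24 to 8.90 (median 8.13) in wild type muscle. The groups overlapped at both ages, with genotype differences of 0.43 (SE 0.46, adjusted p = 0.718) and -0.16 (SE 0.49, adjusted p = 0.870, limma).

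The age difference of Gsn in wild type muscle was 1.36, 100 minus 70 days (SE 0.48, adjusted p = 0.206), and in G93A-SOD1 muscle 0.77 (SE 0.48, adjusted p = 0.763). The summed fibroblast marker level, with 6 of 6 markers detected, ran from 12.83 to 13.52 (median 13.18) at 100 days and from 12.18 to 13.50 (median 13.11) at 70 days in wild type muscle, and its part in the Gsn values was not tested. In spinal cord Gsn gave a genotype difference of 0.10 at 70 days (SE 0.26, adjusted p = 0.901) and -0.37 at 100 days (SE 0.27, adjusted p = 1.0). In G93A-SOD1 spinal cord its age difference was -0.78 (SE 0.26, adjusted p = 0.677). The 100 day group held 1 low array, replicate 1 at 5.65, without which the genotype difference at 100 days was -0.09 (adjusted p = 0.999) and the age difference -0.50 (adjusted p = 0.817, limma).

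Scin, the other severing protein, had muscle differences of -0.16 at 70 days (SE 0.24, adjusted p = 0.810) and -0.53 at 100 days (SE 0.26, adjusted p = 0.184, limma). At 100 days it ran from 5.14 to 6.20 (median 5.59) in G93A-SOD1 muscle and from 5.49 to 7.36 (median 6.14) in wild type muscle, and the groups overlapped.

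Capg, the end capper, came nearest to the threshold among the members in muscle. At 100 days it ran from 6.63 to 7.49 (median 6.90) in G93A-SOD1 muscle, against 5.97 to 6.80 (median 6.47) in wild type muscle. The ranges overlapped at the edge, with 1 G93A-SOD1 array at 7.49 well above the others. The difference was 0.45 (SE 0.15, 1.36-fold, adjusted p = 0.0560, limma). It passed with array weights (0.46, adjusted p = 0.0280) and with the replicate number as a block (0.45, adjusted p = 0.0435), and over 11 alternative settings the adjusted p ran from 0.0280 to 0.140. Without the array at 7.49 the difference was 0.35 (adjusted p = 0.120). At 70 days the difference was -0.05 (SE 0.14, adjusted p = 0.915), and the change between the ages was 0.49 (SE 0.21, adjusted p = 0.998).

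Macrophage markers moved in the same muscles. Of 11 macrophage and microglia markers 7 were measured in muscle and 2 rose in G93A-SOD1 muscle at 100 days, where 5.58% of all probes were called higher, Aif1 by 0.57 (SE 0.15, adjusted p = 0.0200, limma) and Cx3cr1 by 0.53 (SE 0.15, adjusted p = 0.0292), with a median of 0.57 over the 7, against -0.02 over all probes. The summed level ran from 9.21 to 10.83 (median 10.13) in G93A-SOD1 muscle and from 8.73 to 9.81 (median 9.55) in wild type muscle, and Itgam and P2ry12 were never detected in muscle. The Fc receptor gene Fcgr4, the 1 measured of 7 monocyte markers, was higher by 1.43 (SE 0.24, adjusted p = 0.00309), with no overlap, as were 1.74% of all probes. The neutrophil gene S100a8 was higher by 2.55 (SE 0.81, adjusted p = 0.0422, limma). It was the 1 called of 2 measured neutrophil markers, and the other differed by 0.11. All 5 measured denervation genes rose, against 5.58% of all probes, among them Chrng, the fetal acetylcholine receptor subunit, by 5.08 (SE 1.00, adjusted p = 0.00648). The fast fibre myosin Myh4 was lower, with a difference of -1.71 (SE 0.52, adjusted p = 0.0354, limma). It was the 1 called of 6 measured fast fibre markers, whose median was -0.12. The myelin gene Mbp was also lower, with -1.68 (SE 0.38, adjusted p = 0.0118). It was the 1 called of 3 measured genes of the oligodendrocyte marker list, whose median was -0.78. Which cells gave their signal in muscle was not tested. Of all probes 4.47% were called lower. At 70 days these lists held 0 called genes in muscle, where 0.00938% of all probes were called. Denervation genes then had a median of 2.16, with 5 of 5 at an unadjusted p under 0.05 (limma). Macrophage markers had 0.30, with 2 of 7, against 14.7% of all probes. The 2 neutrophil markers differed by -0.03 and 2.46 and the monocyte marker by 0.34. The fast fibre and oligodendrocyte lists had medians of -0.02 and -0.13. The part of these genes and their cells in the Capg values was not tested.

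In spinal cord Capg differed by 0.33 at 70 days (SE 0.37, adjusted p = 0.779) and 0.19 at 100 days (SE 0.38, adjusted p = 1.0, limma). In blood it ran from 8.35 to 9.04 in G93A-SOD1 mice and from 7.79 to 10.35 in wild type mice at 70 days, a difference of -0.21, and differed by 0.01 at 100 days.

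**Figure D3:**
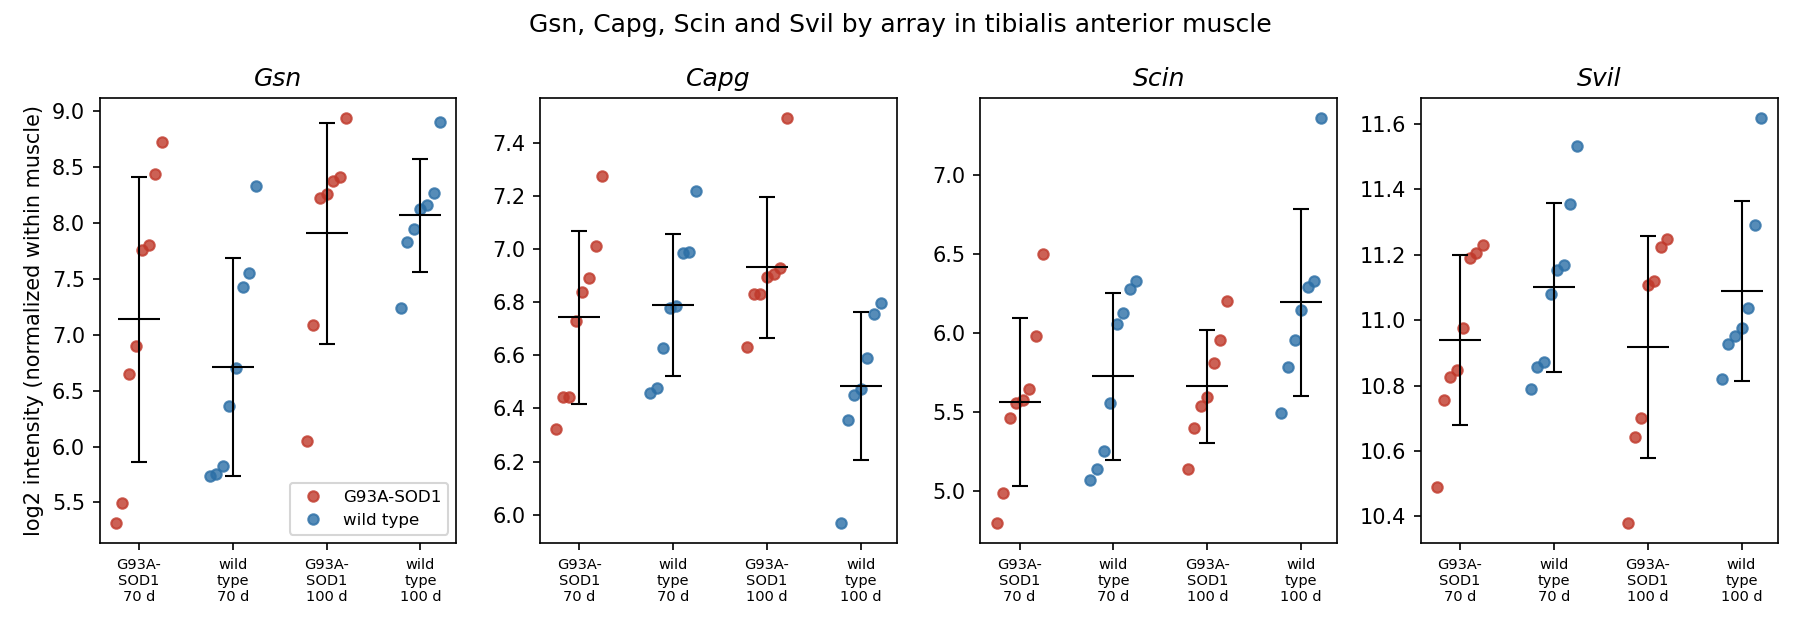
Log2 intensity of Gsn, Capg, Scin and Svil (ILMN_2776524) on each tibialis anterior array (points) by age and genotype, with mean and SD as horizontal marks and bars; each panel has its own scale. Gsn spans 5.32 to 8.94, and Capg at 100 days sits between 6.63 and 7.49 in G93A-SOD1 muscle and between 5.97 and 6.80 in wild type muscle.

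Svil, the membrane linker, was read by several probes. ILMN_2776524 differed by -0.16 at 70 days (SE 0.14, adjusted p = 0.638) and -0.17 at 100 days (SE 0.15, adjusted p = 0.490) in muscle, where ILMN_1224247 gave -0.11 and -0.16 (adjusted p = 0.822 and 0.618, limma). The probes detected on 9 and 11 muscle arrays had levels from 4.64 to 5.81 and differences from -0.20 to 0.09. In spinal cord ILMN_2776524 ran from 4.94 to 7.87 (median 7.24) in G93A-SOD1 mice and from 7.10 to 8.72 (median 7.87) in wild type mice at 70 days, a difference of -0.80 (SE 0.29, adjusted p = 0.746). The lowest value was the dim array, and the highest 2 wild type values, 8.64 and 8.72, were on the arrays with muscle transcripts. Without all 5 spinal cord arrays that stood apart the difference was -0.22 (adjusted p = 0.999), without the 2 dim arrays -0.50 and without the 3 arrays with muscle transcripts -0.52. At 100 days it was 0.05 (SE 0.30, adjusted p = 1.0). In blood ILMN_2776524 differed by -0.10 and 0.24 at 70 and 100 days.

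**Figure D4:**
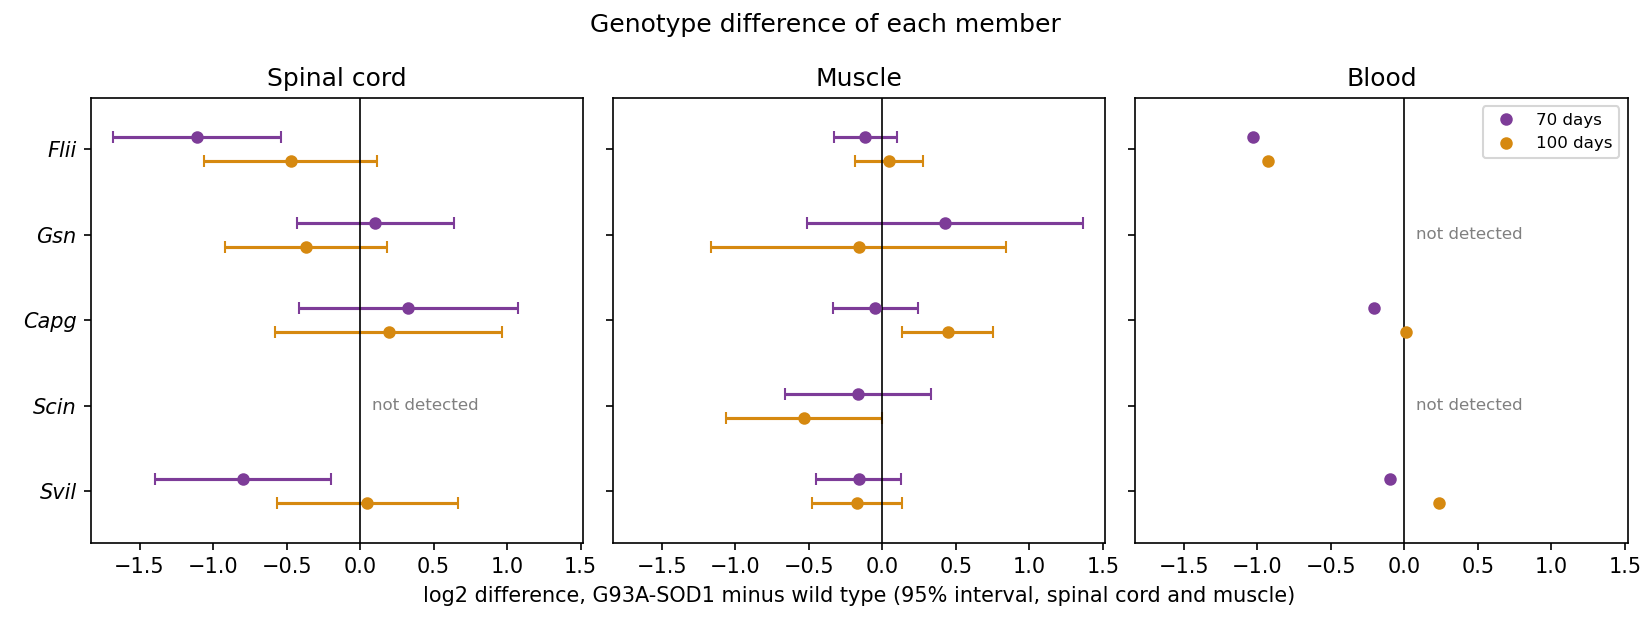
Log2 difference of G93A-SOD1 minus wild type for each member at 70 and at 100 days in spinal cord, muscle and blood; bars are 95% intervals of the fit in spinal cord and muscle, and blood shows points only. Flii lies left of 0 in spinal cord and in blood at both ages, and near 0 in muscle. Its interval in spinal cord crosses 0 at 100 days.

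The wider actin machinery was described through 59 related genes in 8 groups, of which 38 were measured in spinal cord, 39 in muscle and 37 in blood. In spinal cord 0 of 38 were called at 70 days, where 0.0232% of all probes were, and 0 at 100 days, where 0.0155% were (limma). At an unadjusted p under 0.05 there were 2 and 1 of them, against 4.98% and 3.06% of all probes. Their medians were -0.03 and 0.01, against -0.03 and 0.01 over all probes. In blood 0 of 37 were called at 70 days, where 0.0726% of all probes were, and 0 at 100 days, where 0.0518% were, with 3 and 2 at an unadjusted p under 0.05, against 5.85% and 2.16% of all probes. In muscle 0 of 39 were called at 70 days, where 0.00938% of all probes were, with 4 at an unadjusted p under 0.05, against 14.7% of all probes.

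At 100 days 3 related genes rose and 1 fell in G93A-SOD1 muscle, of 39 measured, a share near the 10.0% of all probes (5.58% higher and 4.47% lower). Arpc1b, a subunit of the Arp2/3 complex that starts branched filaments, averaged 8.91 in G93A-SOD1 muscle and 8.28 in wild type muscle and was higher by 0.63 (SE 0.12, adjusted p = 0.00489, limma) with no overlap, as were 1.74% of all probes. Arpc1a, of the same complex, was higher by 0.30 (SE 0.10, adjusted p = 0.0407). Among the profilins, which load actin monomers, Pfn1 was higher by 0.40 (SE 0.13, adjusted p = 0.0411) and Pfn2 was lower, with 11.24 in G93A-SOD1 muscle and 11.88 in wild type muscle (-0.64, SE 0.18, adjusted p = 0.0274). The median over the 39 genes was -0.03, against -0.02 over all probes.

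The binding partners of Flii, Lrrfip1 and Lrrfip2, named for binding its leucine-rich repeat, were measured in all 3 tissues and neither was called. Lrrfip1 differed by -0.36 at 70 days (SE 0.19, adjusted p = 0.746) and -0.26 at 100 days (SE 0.20, adjusted p = 1.0) in spinal cord, and by 0.23 (SE 0.17, adjusted p = 0.931) and -0.17 (SE 0.18, adjusted p = 1.0) in blood. In muscle it differed by -0.38 at 70 days (SE 0.13, adjusted p = 0.181) and -0.24 at 100 days (SE 0.14, adjusted p = 0.254). Lrrfip2 differed by -0.11 to 0.14 over the 6 comparisons.

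The genes most like each member over the 12 group means were named by Pearson's r, as a description of points that share tissues and normalization. These means include the blood groups by which Flii was chosen. For Flii the most like genes were Lsm4, an RNA-binding protein of the Sm-like family (r = 0.977, Spearman's rho = 0.958), Nrde2 (r = 0.916) and Cdc42bpg (r = 0.907). For Gsn they were Pole3 (0.988), Rab1b (0.987) and Itm2a (0.984), and for Capg Fxyd5 (0.999), Fam111a (0.998) and Tagln2 (0.998). For Scin they were Hjv (0.996), Trmt13 (0.994) and Bccip (0.993), and for Svil Cdc34 (0.995), Ctdnep1 (0.995) and Tarbp2 (0.995).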

How the data were processed

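The deposited tables held signal intensity values and a detection p-value for each probe of each array. Per the file headers the deposited intensities were non-normalized, and no source used here says how the authors computed the detection p-values. The deposited series matrix held log2 values of unstated normalization, which kept the signal order on 92 arrays. Dropped were 7 lines that named no probe (0.00539% of signal). The neqc function (limma 3.58.1, R 4.3.3, offset 16) corrected background and quantile normalized each tissue, with negative controls inferred from the detection p-values. Every probe detected (p under 0.05) on at least 7 arrays was fitted with limma over the 4 groups of its tissue, with a Benjamini-Hochberg threshold of 0.05. Tissue comparisons used a limma fit over the groups of all tissues, normalized together, of probes detected on at least 7 of all arrays. Every single p-value in the text is from these limma fits or from their named alternatives. Symbols were matched to RefSeq (GRCm38.p6; 20968 of 20984 probes with 1 symbol). A list used the brightest probe of each gene, and up to 3 called genes of each list were named. Among 308 within-group array pairs 0 were identical. The procedure was tested on simulated data. Members and lists were chosen with earlier results of these data known. The fits without the 2 dim arrays, without the 3 arrays with muscle transcripts, and without 1 outlying array for Gsn and for Capg were chosen after seeing the data.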

Additional observations from a re-analysis of the deposited data

Results flagged for a closer look

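Each of 17 probe and tissue pairs was examined in 4 groups, and in 8 of these 68 sets of values 1 array stood apart from the others. Chance gives about 1 in 20 of independent sets, which these are not, since probes share arrays and 3 of the 8 came from 1 array. In G93A-SOD1 spinal cord at 70 days this was the dim array, replicate 1, for 3 probes: Flii read 4.68 against 7.12 to 8.01 on the others, Svil ILMN_2776524 read 4.94 against 6.80 to 7.87, and Svil ILMN_1224247 read 6.23 against 4.77 to 5.25. Gsn read 5.65 on replicate 1 of G93A-SOD1 spinal cord at 100 days, against 7.51 to 8.24. Svil ILMN_1224247 read 5.67 on wild type spinal cord replicate 5 at 70 days, an array with muscle transcripts, against 4.82 to 5.17. Capg read 7.49 on G93A-SOD1 muscle replicate 4 at 100 days, against 6.63 to 6.93, and Svil ILMN_1240861 read 5.78 on G93A-SOD1 muscle replicate 3 at 70 days, against 4.80 to 5.18. In wild type blood at 100 days Capg read 9.99 on replicate 5, against 8.08 to 8.83.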

How the results depend on the processing

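Of the values recomputed under the alternatives, 692 kept their direction and their side of the threshold. With array weights 1 member probe was called in spinal cord at 70 days (Flii, -0.80) and 1 in muscle at 100 days (Capg), and the replicate block also called 1 there. The series matrix values gave smaller Flii differences in blood, -0.59 at 70 days and -0.49 at 100 days; the cause was not tested. Signs turned in 21 cases, of which the Flii difference of blood minus spinal cord (1.19) had been called. Median centring turned Gsn at 70 days in spinal cord to -0.29, Capg to -0.034, and the change of the Gsn difference with age to 0.20; in muscle it turned Capg at 70 days to 0.074, Svil ILMN_1224247 to 0.011 at 70 days and 0.11 at 100 days, Gsn to 0.094 and Svil ILMN_2776524 to 0.032 at 100 days, and in blood the age change of Flii to -0.076. Between tissues it turned Gsn (muscle minus spinal cord) to -0.56, and Flii to -0.17 (blood minus spinal cord) and 0.44 (muscle minus blood). Capg in spinal cord turned to -0.0046 at 70 days and -0.080 at 100 days with array weights, to -0.021 at 70 days without the arrays that stood apart and to -0.081 at 100 days without the 2 dim arrays. Gsn at 70 days turned to -0.011 in the series matrix. The age difference of Flii in wild type spinal cord turned to 0.024 with array weights, 0.018 with the replicate block, 0.054 without the arrays that stood apart and 0.049 without the 2 dim arrays. Median centring moved the median of all probes to -0.32 and 0.23 in spinal cord, 0.17 in muscle at 100 days, and 0.26 and 0.11 in blood; relative to it, Flii in blood was at -0.97 and -0.90. Calls over all probes in muscle at 100 days ran from 27 to 1652, in spinal cord from 1 to 5 at 70 days and from 0 to 5 at 100 days, in blood from 3 to 11 at 70 days and from 2 to 14 at 100 days, and in muscle at 70 days from 0 to 8. Same-numbered arrays correlated above 0.1 in 7 of 15 pairs in spinal cord, 8 of 15 in muscle and 12 of 15 in blood. The labels do not say what a replicate number shares. The main fit left the number out, and only the replicate block took it in. Flii in spinal cord at 70 days stayed at -1.11 with the replicate block (adjusted p = 0.744, limma). Signals near background limit what Scin and the weaker Svil probes can show.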
